A study of Homo sapiens with 28 samples.

Results

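The results below describe 3 samples of SK-N-MC cells in which the second of a pair of hairpins against CHD4, shCHD4#2, had been induced for 48 h, set against the 5 shScramble samples of the same time. The samples were chosen by their hairpin and time labels, and these 8 are among 28 in the series. SK-N-MC is an established Ewing sarcoma line. The tested cells carried shCHD4#2 and the controls a scrambled hairpin, and all received 100 ng/ml doxycycline, which switches the hairpins on. For comparison, the series also holds 3 samples with the other CHD4 hairpin, shCHD4#1, and 3 with a hairpin against FLI1, shFLI1, each at 48 h and under the same doxycycline, as well as shCHD4#2 and shScramble cells after 24 h. The model has limits: it is 1 cell line, each hairpin is 1 construct whose sequence was not analysed here, and the labels do not say whether the hairpin lines are clones or pools. In the control samples the genotype field says CHD4 knockdown although title and treatment say shScramble, and their CHD4 level was that of controls. RNA was total RNA, sequenced as paired ends from a strand-marking library kit.

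CHD4 is an ATPase that moves nucleosomes and the motor of the NuRD complex, which joins remodelling to histone deacetylation through HDAC1 and HDAC2 and is recruited to enhancers and promoters. Ewing sarcoma cells depend on EWS-FLI1, a fusion transcription factor that switches on genes at GGAA repeats and lowers others. The sets of genes followed here are the NuRD subunits, the targets of the fusion, and the pathways that a tumour line needs for growth. Values are the authors' normalised read counts per gene, which are not scaled by gene length. They compare samples, not genes.

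The 8 samples held 49530599 to 53529602 recovered reads with shCHD4#2 and 47972710 to 59291237 with shScramble (two-sided exact permutation test, p = 0.357, the smallest this design allows being 0.0179). Mitochondrial ribosomal RNA and the share of the 10 most abundant genes did not separate the groups either (exact permutation tests, p = 0.679 and p = 0.286). Processed pseudogenes took 0.356 and 0.388 percent of reads in shCHD4#2 replicates 1 and 2 and 0.272 percent in replicate 3, against 0.317 and 0.372 percent in shScramble replicates 1 and 2 and 0.244 to 0.25 percent in the others. Replicates 1 and 2 thus stood apart in both groups, and values within each set are given beside the named genes whose fold they move by over 1.5 times. Of 16 markers of blood, fibroblast, endothelial and other cells, 12 were in the table, and their summed level was 703.8 to 1101 in shCHD4#2 samples and 732.8 to 1465 in shScramble samples. Most of the sum was PDGFRB, a marker of fibroblasts and pericytes, with 499.6 to 878.5 in shCHD4#2 samples and 608.5 to 1318 in shScramble samples. VWF, an endothelial marker too low to test, had 18.1, 13.6 and 27.4 in shCHD4#2 samples. Its shScramble values were 8.93, 0, 2.04, 1.87 and 2.18, with no overlap. PECAM1, also endothelial and too low to test, was not raised, with 2.85, 7.23 and 1.05 in shCHD4#2 samples. In shScramble samples PECAM1 had 4.46, 6.19, 6.11, 3.73 and 6.54. The T cell marker CD3E was at 0 in all 3 shCHD4#2 samples and in 3 of the 5 shScramble samples. CD68 was the only 1 of the 4 markers abundant enough to test that passed the test. It had 118 ± 8.97 normalised counts in shCHD4#2 samples against 68.2 ± 7.79 in shScramble samples. That call was lost within replicates 1 and 2 alone (log2 fold change 0.79, limma, adjusted p = 0.128). With shCHD4#2 replicate 3 against shScramble replicates 3 to 5 the log2 fold change was 0.72. The part of these values in the results was not tested, and in bulk RNA fewer cells of a type and less RNA per cell cannot be told apart. Of 12 genes that mark Ewing lines all were abundant enough to test. CD99, the membrane protein used in diagnosis, had 4143, 2389.7 and 3471 normalised counts in shCHD4#2 samples, against 6148, 6106, 7744, 6834 and 7431 in shScramble samples.

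The target gene was low in every shCHD4#2 sample. CHD4 (chr12:6570082-6614524, minus strand, GRCh38) had 2722, 2801 and 2727 normalised counts with shCHD4#2, against 9343, 10706, 13099.5, 12773 and 12105 with shScramble. The means were 2749.9 ± 44.1 (SD, n = 3) and 11605 ± 1563 (SD, n = 5), with no overlap and little spread among the knockdown samples. This is a log2 fold change of -2.07 ± 0.10 (SE; limma, adjusted p = 2.57e-08), or 0.239 times the control level. The other hairpin brought CHD4 to 3189 ± 267, and the direct difference between the hairpins was -0.21 ± 0.11 on the log2 scale (adjusted p = 0.164). At 24 h shCHD4#2 cells had 3075 ± 351, against 11550.1 ± 1236 in shScramble cells of that time, so the level was about as low after 24 h as after 48 h.

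Across the transcriptome, 3688 of 21025 tested genes were higher with shCHD4#2 (17.5 percent) and 4276 were lower (20.3 percent) at a Benjamini-Hochberg adjusted p of 0.05. At least 2-fold changes were seen for 1274 genes upwards (6.06 percent) and 1181 downwards (5.62 percent), and the median log2 fold change over all tested genes was 0.01. Replicate numbers and the split of replicates 1 and 2 from the other replicates served as checks. With replicate number as a block 3396 genes were higher and 3954 lower. With the split as a term the counts were 4683 and 4975. Replicates 1 and 2 alone, 2 samples a group, gave 578 and 770. Of 314 called genes named here or counted on the lists, 208 did not pass in replicates 1 and 2 alone. The other set has 1 shCHD4#2 sample, so only its fold changes are used. All 314 kept their direction in both sets. They had been called in a fit of these same samples, so a shared direction was largely set by their choice. Leaving out shCHD4#2 replicate 2 reduced the count of higher genes to 2333, the only omission of a sample that moved either count by over 1.5 times.

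The NuRD list holds 14 subunits other than CHD4, among them its paralogues CHD3 and CHD5. Of these 14, 4 were higher and 3 lower with shCHD4#2. Among all genes 17.5 percent were higher and 20.3 percent lower, so the counts of the list lie near the background. RBBP4, a histone-binding WD40 protein, had 9006, 6381 and 8661 normalised counts in shCHD4#2 samples, against 14230.3, 13225, 17808, 17866 and 17608 in shScramble samples. All knockdown values lay below all controls, with a log2 fold change of -1.02 ± 0.13 (adjusted p = 3.15e-05). CHD5, the paralogue of CHD4 best known from neurons, had 1175, 1473 and 1434 in shCHD4#2 samples, against 517, 210.3, 523, 515 and 607 in shScramble samples, of which replicate 2 was far below the others. Its log2 fold change was 1.6 ± 0.36 (adjusted p = 0.00331). CHD3, the remaining paralogue, averaged 14213 ± 1499.9 with shCHD4#2 against 15928 ± 552 with shScramble (log2 fold change -0.17, adjusted p = 0.176).

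Changes in the other subunits were smaller. The zinc finger subunit GATAD2B was higher (log2 fold change 0.47, adjusted p = 0.00486), as were MTA2 (0.43, adjusted p = 0.038) and CDK2AP1 (0.39, adjusted p = 0.01). The deacetylase HDAC1 was lower (-0.37, adjusted p = 0.0163), and so was the scaffold protein MTA1 (-0.26, adjusted p = 0.0172). These last 4 calls are fragile: MTA2, CDK2AP1, HDAC1 and MTA1 each lost the call when shCHD4#2 replicate 2 was left out, with largest adjusted p over single omissions of 0.164, 0.064, 0.0787 and 0.0841 in that order. HDAC1 also lost it without shCHD4#2 replicate 1, HDAC1 and MTA1 under quantile normalisation, and MTA2 without shCHD4#2 replicate 3 or shScramble replicate 1 or 2. The other subunits, HDAC2, RBBP7, MTA3, MBD2, MBD3 and GATAD2A, had log2 fold changes between -0.21 and 0.23 and did not pass.

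**Figure D1:**
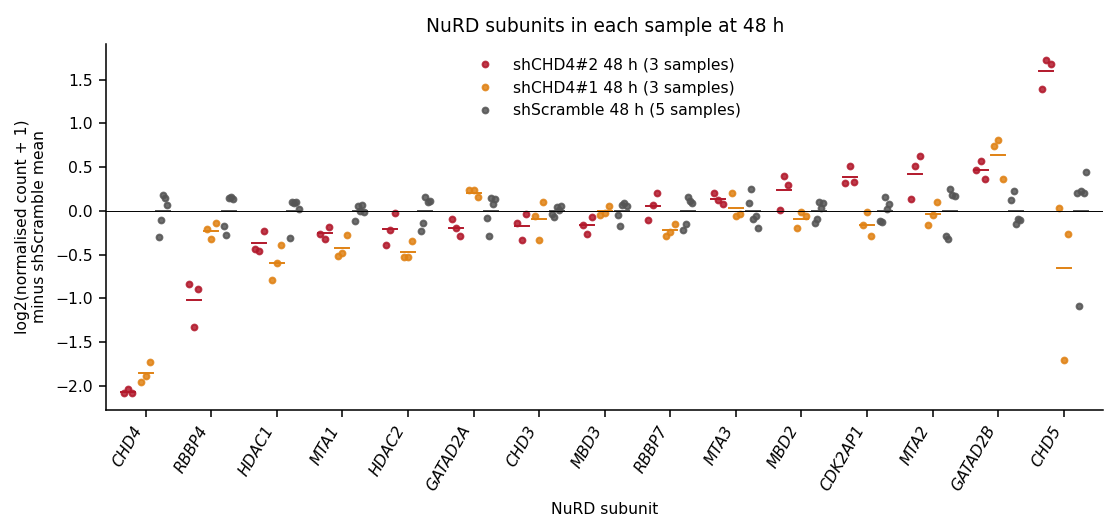
NuRD subunits in each 48 h sample, as log2 of the normalised count plus 1 minus the shScramble mean of the gene; points are samples of shCHD4#2, shCHD4#1 and shScramble, and short lines are group means. CHD4 lies near -2 with both hairpins, RBBP4 near -1 with shCHD4#2, and CHD5 lies above every control with shCHD4#2.

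The genes named for size of change had to pass the test, have groups that did not overlap, and average at least 100 normalised counts in the higher group. The largest rises among them were in genes with low counts in control cells. A gene was tested if its mean over all 28 samples reached 10. SLC1A2, GNA15 and H2BC1 averaged under 10 in the 48 h controls and were tested only because other groups were higher. DHRS2, a short-chain dehydrogenase (chr14:23630115-23645639, plus strand), had 1995, 526 and 432 normalised counts in shCHD4#2 samples, against 106, 28.9, 20.3, 17.7 and 36 in shScramble samples. Every knockdown sample exceeded the highest control by a wide margin, although shScramble replicate 1 was itself above the other controls, and the log2 fold change was 4.49 ± 0.61 (adjusted p = 6.92e-05). SLC1A2, a glutamate transporter of astrocytes and neurons, had 149, 225 and 207 in shCHD4#2 samples, against 10.7, 10.3, 6.1, 10.3 and 9.81 in shScramble samples (4.22 ± 0.29, adjusted p = 3.38e-07). GNG12, a G protein gamma subunit, had 631, 867 and 859 in shCHD4#2 samples, against 123, 23.7, 30.5, 42.9 and 43.6 in shScramble samples (4.11 ± 0.46, adjusted p = 1.48e-05). That the shCHD4#2 samples of all 3 genes lay above every control was a condition for naming them.

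TNFRSF12A encodes the receptor for the cytokine TWEAK and had the smallest adjusted p among the 12 largest rises in protein-coding genes. It had 1100.0, 1959 and 1869.9 normalised counts in shCHD4#2 samples, against 152, 121, 116, 134 and 126 in shScramble samples, and the controls lay close together (3.61 ± 0.17, adjusted p = 2.57e-08). PPL, which encodes the desmosomal linker periplakin, had 295, 150.0 and 179 in shCHD4#2 samples, against 8.04, 9.28, 17.3, 14 and 10.9 in shScramble samples (4.0 ± 0.66, adjusted p = 0.000309). CNTFR, the receptor for ciliary neurotrophic factor, had 155, 342 and 181 in shCHD4#2 samples, against 25, 20.6, 26.5, 11.2 and 19.6 in shScramble samples (3.36 ± 0.35, adjusted p = 7.31e-06). A G protein alpha subunit also appears in this group: GNA15 averaged 121 ± 31.9 with shCHD4#2 against 7.95 ± 2.16 with shScramble (3.76, adjusted p = 6.23e-07).

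The remaining protein-coding genes of the 12 were the cyclophilin PPIC (271 ± 59.9 with shCHD4#2 against 17.1 ± 7.97 with shScramble), CCDC144NL (375 ± 144 with shCHD4#2 against 17.3 ± 5.65 with shScramble), the stress-induced chromatin protein NUPR1 (162 ± 41.4 with shCHD4#2 against 16.8 ± 10.1 with shScramble) and a pair of H2B histone genes. H2BC14 averaged 841 ± 318 with shCHD4#2 against 53.7 ± 20.9 with shScramble, and H2BC1, an H2B gene known from testis, 100.1 ± 14.3 with shCHD4#2 against 8.39 ± 2.7 with shScramble. Their log2 fold changes lay between 3.42 for NUPR1 and 4.35 for CCDC144NL. Histone genes are near-identical copies, so reads may be shared among them. NUPR1 had a log2 fold change of 2.43 within replicates 1 and 2 and of 4.20 within the others. Among genes that do not code for protein and met the same conditions, AC233702.1 (5.55), CCDC144NL-AS1 (5.44) and TSPEAR-AS2 (4.61) rose most, the first of them by 4.96 within replicates 1 and 2 and 5.75 within the others. CCDC144NL and CCDC144NL-AS1 are named as antisense partners, and without the strand setting of the authors' counting their reads cannot be told apart.

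These rises were shared with other settings to unequal degrees, and the comparisons below use the same 5 shScramble samples. DHRS2 had log2 fold changes of 4.49 with shCHD4#2 and 3.79 with shCHD4#1, and PPL 4.0 and 4.95. GNG12 had 4.11 with shCHD4#2, -0.01 with shCHD4#1 and 3.92 with shFLI1. For SLC1A2 the values were 4.22, 2.37 and -1.27 for shCHD4#2, shCHD4#1 and shFLI1, so this gene rose with both CHD4 hairpins and fell with shFLI1. After 24 h all 12 genes were already called higher with shCHD4#2, where 4.05 percent of all genes were, with log2 fold changes between 1.40 for GNG12 and 3.59 for H2BC1.

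The largest falls included genes with high counts in control cells. CCND1 (chr11:69641087-69654474, plus strand), which encodes cyclin D1, the partner of the kinases that open S phase, had 1616, 897 and 1271 normalised counts in shCHD4#2 samples, against 6329, 7352, 13997, 12961 and 14570.5 in shScramble samples. All knockdown values lay far below all controls, with a log2 fold change of -3.09 ± 0.26 (adjusted p = 1.43e-06). Within replicates 1 and 2 it was -2.50, and within the others -3.44. LBH, a transcription cofactor of limb and heart development, had 2348, 1219.7 and 1794 in shCHD4#2 samples, against 8637, 9867, 14291, 12377 and 14897 in shScramble samples (-2.77 ± 0.22, adjusted p = 9.98e-07). ST6GAL1, a Golgi sialyltransferase, had 770.1, 418 and 569.6 in shCHD4#2 samples, against 3448, 4325, 3942, 4011 and 3965 in shScramble samples (-2.79 ± 0.15, adjusted p = 5.1e-08). In all 3 genes the knockdown samples lay below the controls, as the choice of genes required.

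MROH2A had the steepest fall of the protein-coding genes that met these conditions. Its values were 215, 84.9 and 115 in shCHD4#2 samples, against 1219.6, 2056, 1811, 1786 and 2566 in shScramble samples (-3.83 ± 0.40, adjusted p = 8.14e-06). B4GALNT1, which makes complex gangliosides, had 46.6, 50.6 and 51.6 in shCHD4#2 samples, against 355, 671, 320.5, 357 and 229 in shScramble samples (-2.85 ± 0.26, adjusted p = 3.19e-06). Of the control samples, replicate 2 was the highest for this gene. PFKFB4, an enzyme that tunes glycolysis, had 57, 25.3 and 23.2 in shCHD4#2 samples, against 264, 363, 218, 258 and 203 in shScramble samples (-2.95 ± 0.26, adjusted p = 1.83e-06).

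CLEC7A, known as the beta-glucan receptor of myeloid cells, averaged 25 ± 22.1 with shCHD4#2 against 204 ± 54.7 with shScramble, and CLVS1, a lipid-binding protein of neurons, 115 ± 63.2 with shCHD4#2 against 1167 ± 536 with shScramble. The microtubule-associated gene MAP7D2 averaged 80.0 ± 55.9 with shCHD4#2 against 483 ± 96.3 with shScramble, the leucine-rich repeat gene LRRC17 85.7 ± 45.6 with shCHD4#2 against 649 ± 159 with shScramble, and NWD1 20.6 ± 11 with shCHD4#2 against 184 ± 13.2 with shScramble. SV2B, a synaptic vesicle protein, averaged 398 ± 116 with shCHD4#2 against 2804 ± 697 with shScramble (-2.82 ± 0.83, adjusted p = 0.0153), and it lost the call without shCHD4#2 replicate 2 (largest adjusted p over single omissions 0.0737). Among other transcripts that met the same conditions AC091114.1 (-3.62), NPM1P27 (-3.03) and AC016074.2 (-2.80) fell most, AC016074.2 by -3.43 within replicates 1 and 2 and -2.47 within the others.

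Against the same controls, shCHD4#1 gave smaller changes in most of these genes. MROH2A had log2 fold changes of -3.83 with shCHD4#2, -0.74 with shCHD4#1 and -6.29 with shFLI1. LRRC17 had -3.01, -0.12 and 1.26 for shCHD4#2, shCHD4#1 and shFLI1, and was therefore lower with the CHD4 hairpin described here and higher with shFLI1. CLEC7A had -3.27, -0.25 and -0.28, and CLVS1 -3.32, -0.73 and -0.68, in the same order. For CLEC7A and CLVS1, of these 3 hairpins shCHD4#2 alone passed the test against the controls. The direct difference between shCHD4#2 and shCHD4#1 was -3.03 for CLEC7A (adjusted p = 0.000173) and -2.59 for CLVS1 (adjusted p = 0.000625).

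**Figure D2:**
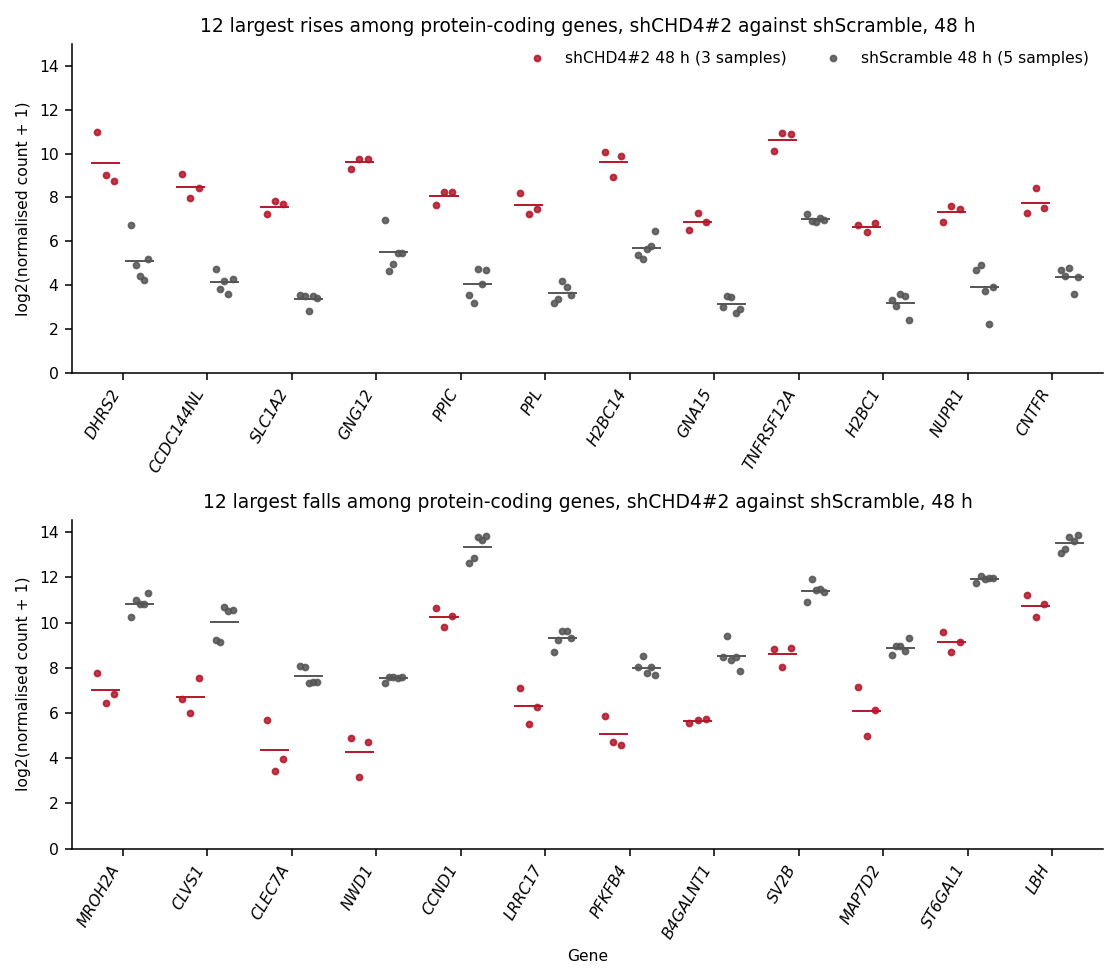
Log2 of the normalised count plus 1 in each 48 h sample for the 12 protein-coding genes that rose most (upper panel) and the 12 that fell most (lower panel); points are samples, lines group means, shCHD4#2 left of shScramble for each gene. The 24 genes were chosen so that the groups do not overlap.

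The starts of 4 named genes show how far these genes differ in sequence. The windows run 250 bases up to the annotated start, from RefSeq on GRCh38.p14, written 5′ to 3′ on the strand of the gene, with each CG dinucleotide in capitals. DHRS2 (chr14:23629865-23630114, plus strand) rose and has no CG in its window, and CNTFR (chr9:34589725-34589974, minus strand) rose and is rich in it. MROH2A (chr2:233775474-233775723, plus strand) fell and holds 4, while MAP7D2 (chrX:20116908-20117157, minus strand) fell and holds 44.
DHRS2: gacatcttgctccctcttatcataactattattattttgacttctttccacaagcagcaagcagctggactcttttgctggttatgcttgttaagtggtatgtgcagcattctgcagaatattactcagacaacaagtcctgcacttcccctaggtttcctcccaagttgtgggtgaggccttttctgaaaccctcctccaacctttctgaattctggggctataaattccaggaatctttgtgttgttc
CNTFR: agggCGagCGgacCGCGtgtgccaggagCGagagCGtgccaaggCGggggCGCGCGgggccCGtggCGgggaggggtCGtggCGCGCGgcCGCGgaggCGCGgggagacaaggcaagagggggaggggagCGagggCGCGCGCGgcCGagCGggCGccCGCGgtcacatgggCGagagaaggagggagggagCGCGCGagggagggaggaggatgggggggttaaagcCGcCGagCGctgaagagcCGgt
MROH2A: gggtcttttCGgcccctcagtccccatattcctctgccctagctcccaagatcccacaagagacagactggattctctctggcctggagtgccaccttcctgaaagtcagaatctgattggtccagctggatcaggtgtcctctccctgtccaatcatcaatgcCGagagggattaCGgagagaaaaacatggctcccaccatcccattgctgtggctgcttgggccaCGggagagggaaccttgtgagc
MAP7D2: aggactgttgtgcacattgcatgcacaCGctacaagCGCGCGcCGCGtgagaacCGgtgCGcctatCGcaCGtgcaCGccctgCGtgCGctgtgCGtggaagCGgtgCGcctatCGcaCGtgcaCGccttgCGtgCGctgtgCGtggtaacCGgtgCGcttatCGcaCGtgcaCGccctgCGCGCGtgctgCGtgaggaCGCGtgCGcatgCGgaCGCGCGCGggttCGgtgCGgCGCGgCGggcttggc
These 4 were chosen after their values were seen, to show the extremes.

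Over all 11162 matched promoters of protein-coding genes (of 14343 tested, windows of 300 bases that add 50 after the start), 12.6 percent were poor in CpG, with an observed over expected ratio under 0.4. Among promoters of genes at least 2-fold higher the share was 23.8 percent, and among genes at least 2-fold lower it was 24.4 percent. Genes with changes under 2-fold had 8.02 percent when higher and 8.4 percent when lower, and genes that did not pass the test 13.1 percent. The pattern is the same in both directions: large changes came with more CpG-poor starts, small ones with fewer. The share is a description of the sequence and says nothing of CHD4 binding there.

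Most genes of the cholesterol pathway were lower. Enzymes of this pathway build cholesterol from acetyl-CoA, and the transcription factor encoded by SREBF2 drives their genes when sterols run low. Of 23 genes for synthesis, transport and their regulation, 20 were lower with shCHD4#2 and 0 higher, next to 20.3 percent lower among all genes. The median log2 fold change of the list was -1.11, beside 0.01 over all genes tested. In 22 of the 23 all knockdown values lay below all control values, against 18.5 percent of all genes. Within replicates 1 and 2 the median was -0.88, and within the other replicates -1.34.

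Regulators of the pathway were among them. SREBF2 (chr22:41833079-41907308, plus strand) had 3524, 3177 and 2893 normalised counts in shCHD4#2 samples, against 7307, 9518, 8091, 8446 and 7589 in shScramble samples, a log2 fold change of -1.35 ± 0.12 (adjusted p = 2.03e-06). INSIG1, which holds the factor in the endoplasmic reticulum and is itself one of its targets, had 832, 659.5 and 533 in shCHD4#2 samples, against 2165, 2509, 3608, 3296 and 3181 in shScramble samples (-2.13 ± 0.24, adjusted p = 1.3e-05). SREBF1, the relative that favours fatty acid synthesis, averaged 1617 ± 141 with shCHD4#2 against 3091 ± 884 with shScramble (-0.89, adjusted p = 0.00214). No knockdown sample reached the lowest control for any of these regulators.

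Enzymes of early, middle and late steps fell. HMGCS1, at the entry to the mevalonate branch, had 2005, 1519 and 1708 normalised counts in shCHD4#2 samples, against 5405, 4589, 6725, 6751 and 6786 in shScramble samples (-1.79 ± 0.16, adjusted p = 2.39e-06). SQLE, the squalene epoxidase, had 12510.1, 10908 and 10457 in shCHD4#2 samples, against 26556, 26970.2, 36448, 34857 and 35509 in shScramble samples (-1.50 ± 0.15, adjusted p = 7.42e-06). MVD (-1.40), IDI1 (-1.11), FDFT1 (-1.22), MSMO1 (-1.41), HSD17B7 (-1.22) and DHCR7 (-1.15) also fell by over 2-fold. The exceptions were late steps: CYP51A1 had a log2 fold change of -0.38 (adjusted p = 0.0624), EBP -0.38 (adjusted p = 0.0516) and TM7SF2 0.04 (adjusted p = 0.877), and TM7SF2 alone overlapped the controls.

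A transport gene fell too. STARD4, a carrier of cholesterol between membranes, averaged 185 ± 45.8 with shCHD4#2 against 746 ± 81.6 with shScramble (-2.03 ± 0.19, adjusted p = 3.06e-06).

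The list was also followed with the other hairpin and at the earlier time. Against the same controls shCHD4#1 lowered 8 of the 23 (15.5 percent of all genes were lower), with a median of -0.38, and raised none. The direct comparison of the hairpins put 16 of 23 lower with shCHD4#2 and 1 higher, with a median difference of -0.71; 19.2 percent of all genes were lower in that comparison. After 24 h of shCHD4#2 11 of the 23 were lower and the median was -0.37, where 7.01 percent of all genes were lower. The change between times passed its own test, as a further fall, for 11 of the 23, against 0.694 percent of all genes, but that comparison is unstable to single samples, as given with the times. With shFLI1 the list had 3 higher and 4 lower and a median of -0.09, beside 32.2 and 31.7 percent of all genes.

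**Figure D3:**
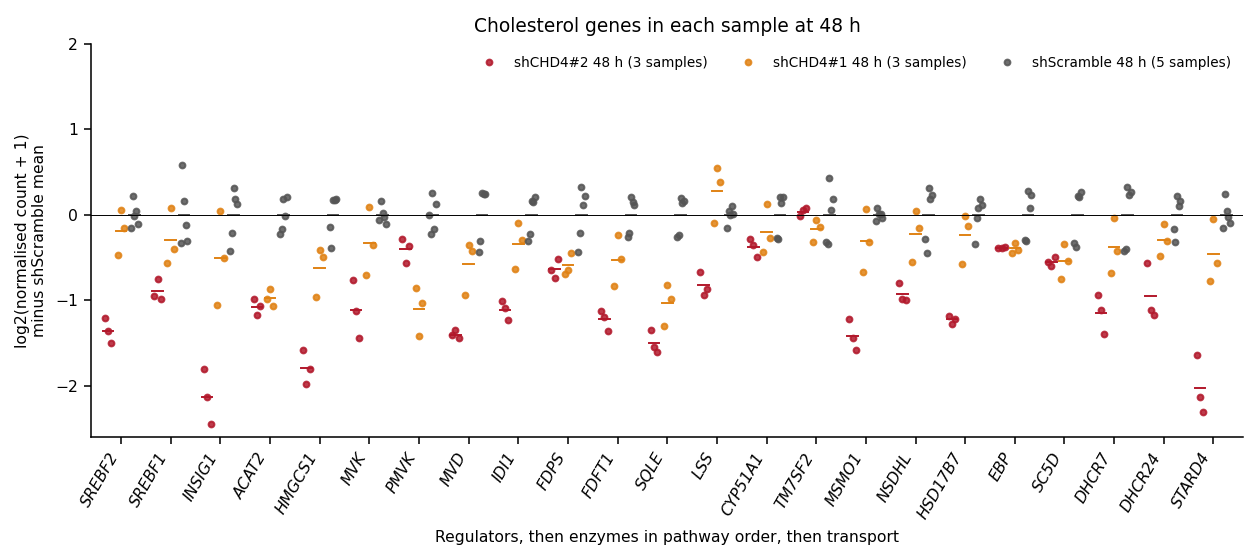
Cholesterol genes in each 48 h sample, as log2 of the normalised count plus 1 minus the shScramble mean of the gene, in order of regulators, enzymes along the pathway and transport; points are samples of shCHD4#2, shCHD4#1 and shScramble and short lines group means. The shCHD4#2 points lie below all shScramble points in every gene but TM7SF2.

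The classic sterol response element, TCACNCCAC on either strand (GTGGNGTGA when read on the other), was sought in the promoters of 300 bases. It was present in 1 of 19 matched cholesterol genes (5.26 percent) and in 122 of all 11162 promoters (1.09 percent). The match was in SREBF2 itself, starting 133 bases before the annotated start, and is shown in capitals in the 250 bases before that start (chr22:41832855-41833104, plus strand, RefSeq, GRCh38.p14).
SREBF2: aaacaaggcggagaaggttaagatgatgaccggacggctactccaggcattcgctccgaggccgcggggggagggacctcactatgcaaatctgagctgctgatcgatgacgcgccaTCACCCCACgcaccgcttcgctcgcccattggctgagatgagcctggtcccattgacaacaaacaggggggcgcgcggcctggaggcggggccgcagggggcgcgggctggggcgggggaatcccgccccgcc
A match is a description of letters, not of binding, and its absence from the other windows says only that these letters are not there.

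Genes that EWS-FLI1 is known to activate were mostly lower. Of 37 tested, 25 were lower with shCHD4#2 and 0 higher, with a median log2 fold change of -0.67, beside 20.3 percent lower among all genes. In 21 of them all knockdown values lay below all controls, against 18.5 percent of all genes. Beside CCND1 and LBH, the neuropeptide receptor NPY1R had 992, 585 and 676 normalised counts in shCHD4#2 samples, against 2547, 2313, 2303, 2059 and 2325 in shScramble samples (-1.65 ± 0.15, adjusted p = 2.97e-06). HOXD13, a limb patterning gene, had 3312, 3193 and 3588 in shCHD4#2 samples, against 6535, 7114, 7693, 7561 and 7013 in shScramble samples (-1.09 ± 0.09, adjusted p = 1.21e-06). The nuclear receptor NR0B1 averaged 539.5 ± 137 with shCHD4#2 against 1261 ± 361 with shScramble (-1.20, adjusted p = 0.000924), and the stem cell factor SOX2 383 ± 92.5 with shCHD4#2 against 954 ± 148 with shScramble (-1.33, adjusted p = 1.51e-05).

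Each hairpin can be read side by side on this list, all against the same 5 shScramble samples. It had 25 lower and 0 higher with shCHD4#2, 12 lower and 0 higher with shCHD4#1, and 35 lower and 1 higher with shFLI1. Of all genes 20.3, 15.5 and 31.7 percent were lower in those comparisons. The medians were -0.67 with shCHD4#2, -0.24 with shCHD4#1 and -1.85 with shFLI1. For CCND1 the log2 fold changes with shCHD4#2, shCHD4#1 and shFLI1 were -3.09, -0.61 and -5.88, and for LBH -2.77, -0.72 and -2.47. In the same order HOXD13 had -1.09, -0.62 and -0.93, and NR0B1 had -1.20, 0.33 and -4.21. The values of LBH and HOXD13 with shCHD4#2 were thus at least as low as with shFLI1, and that of NR0B1 was less low. The difference between shCHD4#2 and shFLI1 was not tested.

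Transcripts of the fusion partners themselves were slightly lower. FLI1 averaged 2974 ± 355 with shCHD4#2 against 3783 ± 454 with shScramble (-0.34 ± 0.12, adjusted p = 0.0291), and with the replicate block its adjusted p was 0.116. It also lost the call without shCHD4#2 replicate 2 or 3 or shScramble replicate 3, 4 or 5, with a largest adjusted p of 0.159. EWSR1 averaged 12955 ± 1617 with shCHD4#2 against 16925 ± 1881 with shScramble (-0.39, adjusted p = 0.00873) and lost it without shCHD4#2 replicate 2 (adjusted p = 0.0607). Reads of the fusion and of the intact genes are counted together under these names.

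Genes that the fusion represses moved less evenly. Of 26 tested, 9 were higher and 3 lower, with a median of 0.23, where 17.5 percent of all genes were higher and 20.3 percent lower. CDKN1A, the cell cycle inhibitor p21, had 123, 339 and 115 normalised counts in shCHD4#2 samples, against 50.9, 21.6, 32.6, 19.6 and 26.2 in shScramble samples (2.53 ± 0.39, adjusted p = 0.000206). CCN2, a matricellular protein and a target of the Hippo pathway, had 543, 1130.2 and 1597 in shCHD4#2 samples, against 385, 451, 195, 297 and 249 in shScramble samples (1.72 ± 0.31, adjusted p = 0.000634). Within replicates 1 and 2 its log2 fold change was 0.91 and did not pass (adjusted p = 0.148). Within the others, with 1 shCHD4#2 sample, it was 2.71. ZYX, a focal adhesion protein, averaged 7363 ± 1423 with shCHD4#2 against 3163 ± 269 with shScramble (1.20, adjusted p = 1.33e-05). MAP4K4, a kinase on the same list, was lower, with 7971 ± 1055 with shCHD4#2 against 12495 ± 746 with shScramble (-0.65, adjusted p = 0.000128), as was the collagen gene COL1A1 (-1.32, adjusted p = 0.00132). With replicate number as a block the list had 7 higher and 5 lower, and with the split as a term 10 and 5.

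Of the 12 Ewing line markers 11 were lower and none higher (median -0.75), beside 20.3 percent lower among all genes. Without shCHD4#2 replicate 2 the count of lower markers was 6, and without shScramble replicate 3 or 4 it was 7. CD99 had a log2 fold change of -1.07 ± 0.14 (adjusted p = 5.84e-05). The membrane antigen STEAP1 averaged 1302 ± 296 with shCHD4#2 against 3059 ± 455 with shScramble (-1.25, adjusted p = 2.79e-05), and BCL11B, a zinc finger factor, 4292 ± 660.1 with shCHD4#2 against 8401 ± 520.3 with shScramble (-0.98, adjusted p = 3.19e-06). Most genes of this list also stand on the list of activated targets.

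**Figure D4:**
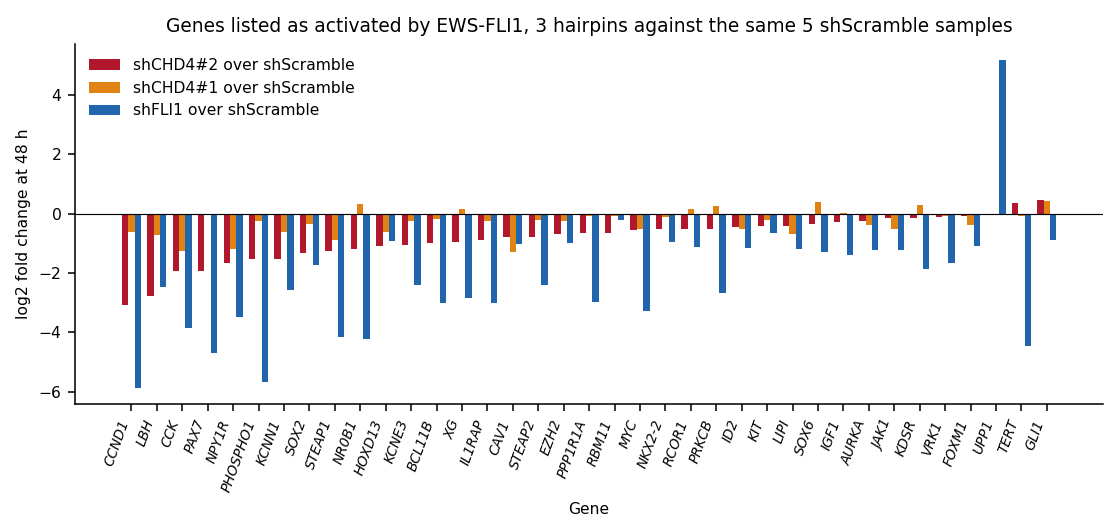
Log2 fold changes at 48 h for the 37 tested genes that EWS-FLI1 is listed as activating, with shCHD4#2, shCHD4#1 and shFLI1 bars from left to right, each over the same 5 shScramble samples. CCND1 and LBH have the largest falls with shCHD4#2, and UPP1 is the 1 gene that rose with shFLI1.

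Many genes of the cell cycle were lower by modest amounts, beside 20.3 percent lower among all genes tested. Of 34 genes for DNA replication or under E2F control 22 were lower and 0 higher (median -0.43), and of 34 mitosis genes 20 were lower and 0 higher (median -0.41). MCM7, a subunit of the replicative helicase, had 10588, 8675 and 10289 normalised counts in shCHD4#2 samples, against 21370.4, 21829, 24789.9, 24094 and 23684 in shScramble samples (-1.24 ± 0.09, adjusted p = 7.34e-07). RRM2, which makes deoxynucleotides, averaged 6552 ± 611 with shCHD4#2 against 14714 ± 2196 with shScramble (-1.16, adjusted p = 1.95e-05), and the helicase assembly factors GINS1 and ORC1 had log2 fold changes of -0.88 and -0.90. TOP2A, the topoisomerase of mitotic chromosomes, had 13421, 10054 and 13361 in shCHD4#2 samples, against 23681, 25327, 35007, 31301 and 32814 in shScramble samples (-1.27 ± 0.14, adjusted p = 1.1e-05). The mitotic kinase AURKB (-1.14), the checkpoint kinase BUB1B (-0.62) and securin, PTTG1 (-0.71), fell too.

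With the other hairpin 16 replication and 21 mitosis genes were lower, with medians of -0.33 and -0.43, against the same controls and beside 15.5 percent of all genes. The direct comparison had 11 replication genes lower and 4 higher with shCHD4#2 than with shCHD4#1, and 6 mitosis genes lower and 6 higher, where 19.2 percent of all genes were lower and 18.6 percent higher. With shFLI1 31 replication and 33 mitosis genes were lower, beside 31.7 percent of all genes. DNA repair genes had 17 lower and 2 higher of 34 (median -0.22) with shCHD4#2, beside 20.3 percent lower and 17.5 percent higher among all genes. The helicase BLM averaged 3457 ± 379 with shCHD4#2 against 6442 ± 245 with shScramble (-0.90, adjusted p = 5.99e-06), XRCC5, the larger Ku subunit, 28750.0 ± 3593 with shCHD4#2 against 52629 ± 3502 with shScramble (-0.88, adjusted p = 1.12e-05), and the checkpoint kinase CHEK1 had a log2 fold change of -0.58 (adjusted p = 0.000181). LIG4, the ligase of end joining, went the other way with 1588 ± 198 with shCHD4#2 against 886 ± 162 with shScramble (0.85, adjusted p = 0.00023). The count of higher repair genes was 1 to 5 under the alternatives tried.

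Chromatin regulators outside NuRD were mostly lower. Of 40 remodellers and cofactors 23 were lower and 1 higher (median -0.36), beside 20.3 and 17.5 percent of all genes; with shCHD4#1 9 were lower and 1 higher, and the direct comparison of the hairpins had 17 lower and 2 higher with shCHD4#2, where 19.2 percent of all genes were lower. PBRM1, a subunit of the PBAF remodeller, had 3685, 2358 and 2967 normalised counts in shCHD4#2 samples, against 7850.0, 8194, 7085, 6969.8 and 7131 in shScramble samples (-1.33 ± 0.11, adjusted p = 1.6e-06). KDM1A, the histone demethylase LSD1, had 9159.6, 8153 and 9667 in shCHD4#2 samples, against 14755, 16674, 20629.6, 19761 and 19267 in shScramble samples (-1.01 ± 0.10, adjusted p = 7.58e-06). CHD8, a relative of CHD4 mutated in autism, averaged 3979.9 ± 219.6 with shCHD4#2 against 6781 ± 491 with shScramble (-0.77, adjusted p = 9.89e-06). Under quantile normalisation the list had 14 lower and 5 higher, and with the replicate block or the split as a term 2 were higher.

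NPM1 and NCL, which encode abundant proteins of the nucleolus, fell far, while the list of ribosome biogenesis genes they belong to had 7 higher and 6 lower members. NPM1 (chr5:171387116-171411137, plus strand) had 18041, 11076 and 14917 normalised counts in shCHD4#2 samples, against 72124, 65126, 99248, 92182 and 93016 in shScramble samples. The highest knockdown value was far under the lowest control, and the log2 fold change was -2.53 ± 0.16 (adjusted p = 1.24e-07). NCL, nucleolin, had 12623, 8444 and 14257 in shCHD4#2 samples, against 39378, 31267, 66770.5, 65542 and 64291 in shScramble samples (-2.15 ± 0.26, adjusted p = 2.49e-05). UBTF, a factor of RNA polymerase I, averaged 3587 ± 774 with shCHD4#2 against 8424 ± 1743 with shScramble (-1.23, adjusted p = 0.000104), and UTP4, a processome subunit, was higher at 2616 ± 438 with shCHD4#2 against 1536 ± 81.1 with shScramble (0.76, adjusted p = 7.85e-05).

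The 34 ribosome biogenesis genes had a median log2 fold change of 0.02. Their counts of 7 higher and 6 lower lie near the 17.5 and 20.3 percent of all genes. The count of higher genes was 3 without shCHD4#2 replicate 2 or 3, 4 without shScramble replicate 1, 11 with the replicate block and 12 with the split as a term. NPM1 pseudogenes behaved like NPM1: of the 21 found, 6 were abundant enough to test, 5 of them lower and 0 higher, with log2 fold changes from -3.13 to -0.46 and a median of -2.10. They are near-identical copies, so their reads may come from NPM1 itself. NPM1 had a log2 fold change of -2.01 after 24 h of shCHD4#2 (adjusted p = 5.19e-05), -0.50 with shCHD4#1 at 48 h (adjusted p = 0.0283) and -1.05 with shFLI1. The direct difference of shCHD4#2 from shCHD4#1 was -2.03 ± 0.18 (adjusted p = 4.03e-06) for NPM1 and -1.74 ± 0.29 (adjusted p = 0.00042) for NCL.

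Stress and early response genes were mixed, with some large members. Of 23 immediate early and AP-1 genes 8 were higher and 2 lower (median 0.38), beside 17.5 and 20.3 percent of all genes. Within replicates 1 and 2 the median was 0.01, and within the others, with 1 shCHD4#2 sample, it was 0.63. Against the same controls shCHD4#1 had 1 higher and 8 lower, beside 12.9 and 15.5 percent of all genes. The direct comparison of shCHD4#2 with shCHD4#1 had 13 higher and 2 lower, next to 18.6 percent higher among all genes. ATF3, a stress-induced transcription factor, had 1062, 2130.4 and 1699 normalised counts in shCHD4#2 samples, against 609, 606, 352, 497 and 376 in shScramble samples (1.72 ± 0.24, adjusted p = 7.35e-05). The phosphatase DUSP5, a brake on ERK signalling, averaged 634 ± 281 with shCHD4#2 against 204 ± 50.3 with shScramble (1.55, adjusted p = 0.000549), and its relative DUSP6 37.4 ± 16.2 with shCHD4#2 against 11.3 ± 3.24 with shScramble (1.57, adjusted p = 0.00156). The survival gene IER3 had a log2 fold change of 0.71 (adjusted p = 0.000882).

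Of 26 ATF4 and unfolded protein response genes 4 were higher and 9 lower (median -0.04), beside 17.5 and 20.3 percent of all genes. The count of higher genes lies near that background. The median was 0.11 within replicates 1 and 2 and -0.31 within the others, with 1 shCHD4#2 sample. TRIB3, a pseudokinase induced by ATF4, had 3143, 4637 and 4072 normalised counts in shCHD4#2 samples, against 941, 807, 1326, 944 and 1009 in shScramble samples (1.97 ± 0.16, adjusted p = 9.99e-07). DDIT4, an inhibitor of mTORC1 signalling, had 239.6, 177 and 205 in shCHD4#2 samples, against 623, 1209, 960.5, 709 and 914 in shScramble samples (-2.06 ± 0.20, adjusted p = 5.4e-06). TRIB3 and DDIT4, which have the smallest adjusted p of this list, thus moved in opposite directions. The chaperone enzyme PDIA4 fell (-1.15, adjusted p = 0.000118).

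Of 24 p53 targets 10 were higher and 5 lower (median 0.15; 6 and 3 without shCHD4#2 replicate 2), beside 17.5 and 20.3 percent of all genes. Beside CDKN1A, SESN2, a stress sensor, rose to 1580.2 ± 352 with shCHD4#2 against 742 ± 146 with shScramble (1.09, adjusted p = 0.000435) and the kinase PLK3 to 219.5 ± 28.8 with shCHD4#2 against 98.4 ± 27.5 with shScramble (1.19, adjusted p = 0.000914). TP53INP1, a p53-induced cofactor of cell death, went the other way with 215, 229 and 205 in shCHD4#2 samples. In shScramble samples it had 396, 622, 505, 394 and 445 (-1.10 ± 0.14, adjusted p = 3.11e-05). The other members called lower were BTG2 (-0.95), FAS (-0.88), BAX (-0.77) and MDM2 (-0.42). Of 24 cell death genes of the BCL2 family and caspases 6 were higher and 7 lower (median -0.15), not far from the 17.5 and 20.3 percent of all genes. BCL2L11, which encodes the death effector BIM, fell to 447 ± 48.3 with shCHD4#2 against 965 ± 94.5 with shScramble (-1.11, adjusted p = 8.2e-06), its relative BMF to 1522 ± 535 with shCHD4#2 against 2833 ± 448 with shScramble (-0.94, adjusted p = 0.000801), and the caspase inhibitor XIAP had -0.47 (adjusted p = 0.00025). The count of 6 higher was 2 without shCHD4#2 replicate 2 or 3.

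Of 25 glycolysis and hypoxia genes 1 was higher and 4 lower (median -0.13), beside 17.5 and 20.3 percent of all genes. With the split as a term 5 were higher and 6 lower, and with the replicate block 3 and 3. PFKFB4 led the falls, PDK1, a brake on pyruvate oxidation, had -0.62 (adjusted p = 0.000928), and the gene that rose was ADM, a vasodilator peptide (1.10, adjusted p = 0.00309). Of 25 interferon and antigen presentation genes 6 were higher and 4 lower (median 0.15), near the 17.5 and 20.3 percent of all genes. IFI44L had 1181, 615 and 880.2 normalised counts in shCHD4#2 samples, against 2535, 3738, 2964, 2914 and 3058 in shScramble samples (-1.81 ± 0.16, adjusted p = 2.75e-06), and its neighbour IFI44 fell to 1010.4 ± 256 with shCHD4#2 against 3126 ± 445 with shScramble (-1.65, adjusted p = 2.91e-06). The peptide transporter gene TAP2 rose to 1443 ± 229 with shCHD4#2 against 376 ± 56.6 with shScramble (1.94, adjusted p = 1.46e-05) and BST2, tetherin, had 0.89 (adjusted p = 0.000355).

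Genes of other lineages were mostly at low levels. Of 30 germline genes only 6 were abundant enough to test. Of them 5 were higher and 0 lower, beside 17.5 and 20.3 percent of all genes. With shCHD4#1 5 were higher and 1 lower, beside 12.9 and 15.5 percent of all genes. MAGEA3, a cancer-testis antigen, had 96, 106 and 103 normalised counts in shCHD4#2 samples, against 44.6, 47.4, 54.9, 44.8 and 50.2 in shScramble samples (1.06 ± 0.16, adjusted p = 0.000133). CTCFL, the germline paralogue of CTCF, averaged 68.7 ± 20.4 with shCHD4#2 against 25.7 ± 7.76 with shScramble (1.40, adjusted p = 0.00152). MAGEC2 and PAGE1, from families of near-identical copies, averaged 60.2 ± 7.03 with shCHD4#2 against 20.6 ± 11.1 with shScramble and 20.4 ± 4.04 with shCHD4#2 against 2.12 ± 2.18 with shScramble. MAGEC2 had a log2 fold change of 0.98 within replicates 1 and 2, where it did not pass (adjusted p = 0.126), and of 1.96 within the others. These genes had to be high in some group to be tested, so their count does not stand for the list.

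Of 30 striated muscle genes 14 were abundant enough to test. Of these 4 were higher and 2 lower (median 0.49), beside 17.5 and 20.3 percent of all genes. At a minimum mean of 50 the counts were 2 and 1. DES, which encodes desmin, had 129, 59.6 and 42.1 normalised counts in shCHD4#2 samples, against 9.82, 14.4, 0, 4.67 and 3.27 in shScramble samples (3.73 ± 0.67, adjusted p = 0.0006). TTN, titin, had 57, 117 and 57.9 in shCHD4#2 samples, against 8.93, 7.22, 9.16, 11.2 and 6.54 in shScramble samples (2.97 ± 0.44, adjusted p = 0.000148). DES and TTN averaged under the minimum of 10 in the 48 h controls and were tested because other groups were higher, so this count does not stand for the list either. The log2 fold change of DES was 2.78 within replicates 1 and 2 and 3.90 within the others. With shCHD4#1 the log2 fold change of DES was 4.22 and that of TTN -0.78, and the direct difference between hairpins was 3.75 for TTN (adjusted p = 7.96e-05). MYBPC1 and TNNT1, of slow muscle, were lower (-1.69 and -0.77).

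Of 25 neuronal genes 2 were higher and 8 lower (median -0.41), beside 17.5 and 20.3 percent of all genes. With the split as a term 4 were higher, and the median was -0.04 within replicates 1 and 2 and -0.37 within the others. TUBB3, the neuronal tubulin, had 1067, 1335 and 963 normalised counts in shCHD4#2 samples, against 2643, 2333, 4447, 3766 and 4054 in shScramble samples (-1.59 ± 0.20, adjusted p = 2.97e-05). Synapsin, SYN1, fell to 138 ± 49.6 with shCHD4#2 against 359.8 ± 49.1 with shScramble (-1.43, adjusted p = 9.21e-05), the adhesion protein CNTNAP2 to 3735 ± 1179 with shCHD4#2 against 7485 ± 818 with shScramble (-1.04, adjusted p = 0.000115) and the ubiquitin hydrolase UCHL1 by less (-0.65, adjusted p = 9.85e-05). Of 17 epithelial junction and cytolinker genes 4 were higher and 7 lower (median -0.41), beside 17.5 and 20.3 percent of all genes. Beside PPL the tight junction scaffold TJP1 rose to 1199.6 ± 234 with shCHD4#2 against 419 ± 91.2 with shScramble (1.52, adjusted p = 1.2e-05), whereas keratin KRT18 (-1.07), plakoglobin JUP (-0.89) and plakophilin PKP2 (-0.67) fell.

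Mesenchymal and extracellular matrix genes had 3 higher and 10 lower of 36 (median -0.36), beside 17.5 and 20.3 percent of all genes. The collagen gene COL4A2 fell to 5019 ± 1076 with shCHD4#2 against 11583 ± 3033 with shScramble (-1.18, adjusted p = 0.000366) and the protease inhibitor TIMP3 to 2113 ± 202 with shCHD4#2 against 3293 ± 697 with shScramble (-0.62, adjusted p = 0.00589), while COL12A1 rose (1.18, adjusted p = 0.00104). The count of lower genes was 16 with the split of replicates as a term, 15 with the replicate block, 5 without shCHD4#2 replicate 2 and 6 without replicate 3. With shFLI1 27 were higher and 2 lower, next to 32.2 percent higher among all genes.

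HOX genes, which set position along the body, had 5 higher and 8 lower of 33 (median 0.02), near the 17.5 and 20.3 percent of all genes. HOXB3 averaged 507 ± 171 with shCHD4#2 against 1363 ± 201 with shScramble (-1.47, adjusted p = 2.1e-05), HOXB6 174 ± 51 with shCHD4#2 against 470.5 ± 55.2 with shScramble (-1.46, adjusted p = 9.51e-06) and HOXA9 111 ± 13.5 with shCHD4#2 against 298 ± 65.7 with shScramble (-1.40, adjusted p = 2.95e-05). Members that rose included HOXB9 (1.67, adjusted p = 0.0109) and HOXD10 (0.60, adjusted p = 0.000294), so the HOXB cluster held changes of both signs. HOXB9 did not pass within replicates 1 and 2 alone (2.21, adjusted p = 0.0858). In the set with 1 shCHD4#2 sample its log2 fold change was 1.24. Replication-dependent histone genes had 3 higher and 7 lower of 32, beside 17.5 and 20.3 percent of all genes (median -0.14; 5 higher with the split as a term, 3 lower without shCHD4#2 replicate 2, 11 without shScramble replicate 1). H2BC3 rose to 719 ± 306 with shCHD4#2 against 93.2 ± 26.4 with shScramble (2.89, adjusted p = 9.12e-06) and H4C4 to 198 ± 61 with shCHD4#2 against 51.3 ± 8.41 with shScramble (1.89, adjusted p = 0.000412), whereas H4C1 (-1.28) and H2BC5 (-0.61) fell.

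**Figure D5:**
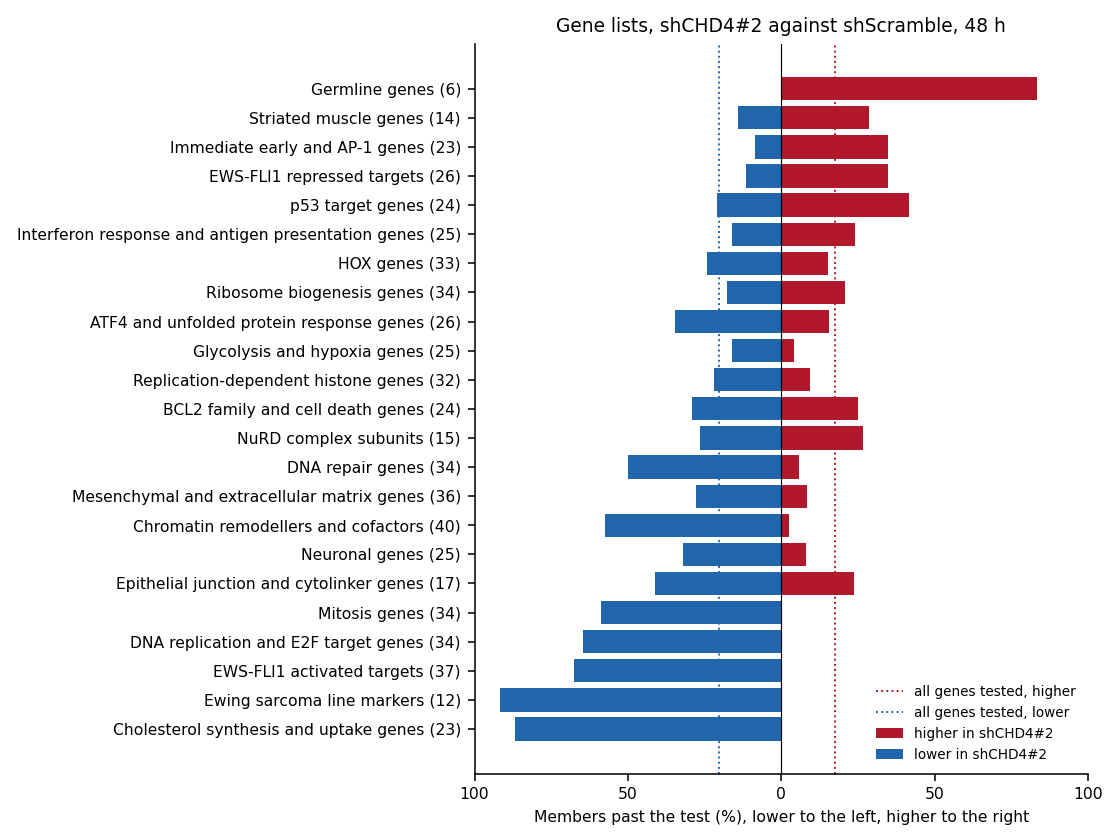
Share of each list's tested members (number in brackets) that passed the test with shCHD4#2 over shScramble at 48 h, lower to the left and higher to the right, in percent. Dotted lines give the shares over all tested genes, 20.3 percent lower and 17.5 percent higher; cholesterol genes and Ewing line markers reach furthest to the left and germline genes, of which 6 were tested, furthest to the right.

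The hairpins against CHD4 were also set against each other without the controls, which asks where the same target gave different transcriptomes. With shCHD4#2 3917 genes were higher than with shCHD4#1 (18.6 percent) and 4046 lower (19.2 percent), although CHD4 itself did not pass the test. GNG12 had 631, 867 and 859 normalised counts with shCHD4#2, against 101, 29.2 and 28.7 with shCHD4#1 (4.11 ± 0.52, adjusted p = 5.69e-05). CCN2 had 543, 1130.2 and 1597 with shCHD4#2, against 88.9, 70.1 and 59.3 with shCHD4#1 (3.77 ± 0.34, adjusted p = 5.98e-06). The controls lie between: CCN2 and its relative CCN1, both matricellular, had log2 fold changes over shScramble of 1.72 and 1.93 with shCHD4#2 and of -2.06 and -1.28 with shCHD4#1. For CCN1 the value with shCHD4#2 was 1.17 within replicates 1 and 2, where it did not pass (adjusted p = 0.119), and 2.80 within the others. FAM111A, an antiviral protease, differed by 3.14 (adjusted p = 9.19e-05) and FTCDNL1 by 3.11 (adjusted p = 7.05e-05).

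In the opposite direction the largest differences were genes that rose with shCHD4#1. NLRP4, an inflammasome family member known from oocytes, had 9.51, 5.42 and 8.42 normalised counts with shCHD4#2, against 110.5, 286 and 166 with shCHD4#1 (-4.35 ± 0.62, adjusted p = 0.000137). RIPOR3 had 215, 48.8 and 82.1 with shCHD4#2, against 1472, 1419 and 1183 with shCHD4#1 (-3.81 ± 0.37, adjusted p = 9.2e-06). The lipid kinase DGKG (-4.08, adjusted p = 5.14e-05), the Rac activator ELMO1 (-4.05, adjusted p = 0.00283) and the amino acid transporter SLC6A19 (-3.52, adjusted p = 3.57e-05) completed the 5. TP53INP1 differed by -3.15 ± 0.15 (adjusted p = 4.66e-08), with 215, 229 and 205 with shCHD4#2 against 1712, 2024 and 2042 with shCHD4#1. Replicates 1 and 2 alone, 2 samples a hairpin, gave 18 genes higher and 24 lower, and the 10 genes named for this comparison kept their direction under every alternative tried.

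The change with time was tested as the difference between the shCHD4#2 effect at 48 h and that at 24 h. It was larger at 48 h in the upward direction for 62 genes (0.295 percent) and in the downward direction for 146 (0.694 percent). These counts rest on few samples: without shCHD4#2 24 h replicate 1 they were 0 and 12, and without shCHD4#2 48 h replicate 2 they were 0 and 14. With replicate number as a block 224 and 426 genes passed, and a fit of the 4 compared groups alone gave 1 and 7. CDKN1A had a log2 fold change of 2.53 at 48 h and -0.20 at 24 h, a difference of 2.73 ± 0.53 (adjusted p = 0.0144). Its mean was 192 ± 127 in 48 h shCHD4#2 samples and 27.9 ± 13.7 in 24 h ones, and 30.2 ± 12.6 and 29.5 ± 6.69 in shScramble samples of the same times.

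GNG12 (2.71, adjusted p = 0.0157), TNFRSF12A (2.11, adjusted p = 0.0101), the growth factor HBEGF (1.81, adjusted p = 0.0158) and SEZ6L2 (1.72, adjusted p = 0.0452) were the other 4 largest increases with time. Among 4 of the 5 largest decreases the phospholipase PLA2G3 had a log2 fold change of -2.45 at 48 h and -0.49 at 24 h (-1.96, adjusted p = 0.00617), and LOXHD1, known from the inner ear, -2.05 and -0.20 (-1.85, adjusted p = 0.0399). MROH2A (-2.47) and NWD1 (-2.22) were also among them. Of these 9 genes PLA2G3 passed in every fit that left out 1 sample. The other 8 genes did not, and GNG12, TNFRSF12A, HBEGF and CDKN1A lost the call without shCHD4#2 24 h replicate 1 or 48 h replicate 2. All 9, PLA2G3 included, lost it in the fit of the 4 compared groups alone.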

How the data were processed

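The submitters' processing notes name DESeq2 1.34.0, featureCounts 1.6.0, HISAT2 2.1.0, SAMtools 1.7, FastQC 0.11.7 and the GRCh38 build. The strand setting of counting and other settings are not given. For each gene and sample the authors deposited a signal, read counts divided by 1 size factor per sample, and per the file headers a table of this comparison with mean signal, log2 fold changes with errors, p-values and adjusted p-values. All values checked (100 percent) came out as whole reads to within 0.02 of a read.

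Groups were compared with limma-trend (limma 3.58.1, R 4.3.3), fitted to log2 of the deposited value plus a pseudocount of 1, which understates changes of low genes, for the 21025 of 35488 genes whose mean over 28 samples reached 10. All 14 samples at 48 h entered the fit, and all 28 for the change with time, with 1 spread estimated for all groups. Two-sided p-values were Benjamini-Hochberg adjusted in each comparison and called at 0.05. Values with ± after a mean are SDs over 3 shCHD4#2, 3 shCHD4#1 or 5 shScramble samples. Alternatives were a replicate block, the split of replicates 1 and 2 from the rest as a term or with each side alone, other pseudocounts, filters and scalings, each sample left out, and edgeR 4.0.16 and DESeq2 1.42.0 on recovered reads, which called 3924 and 3977 genes higher and 4083 and 4472 lower. For the change with time these 2 tools left out shCHD4#1 24 h replicate 3, which belongs to none of the groups compared.

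Same-numbered shCHD4#2 and shScramble samples deviated together from their group means (correlations 0.439, 0.119 and 0.379 across genes for numbers 1 to 3). Some unlike numbers did so too. shCHD4#2 replicate 3 gave 0.482 with shScramble replicate 4 and 0.305 with replicate 5, and replicate 1 gave 0.170 with replicate 2. The remaining unlike numbers gave negative values. The shScramble values do not separate pairing by number from the split of replicates. With shCHD4#1 at 48 h, shCHD4#2 replicate 1 gave 0.407 with number 1 and -0.070 with number 2. Replicate 2 gave 0.240 with number 2 and -0.050 with number 1. With shCHD4#2 at 24 h these values were 0.422 and 0.099, and 0.239 and -0.117. Same numbers thus went together more than unlike ones within replicates 1 and 2 too. Replicate number was left out of the main fit and served as a check. The labels say biological replicates and nothing of separate cultures, so p-values measure the spread between these samples. Replicates differed beyond sampling noise in each of 13 pairs (chi-square of 8.72 to 82.6 per gene).

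The samples, gene lists and rules were chosen with earlier results of these data known. Named are CHD4, all NuRD subunits, the 12 largest rises and falls among called protein-coding genes whose groups did not overlap and whose higher mean was at least 100, the 3 largest among other genes, the 5 largest each way for the other comparisons, and the 4 members with the smallest adjusted p of each list. Other list members, the NPM1 pseudogenes and the printed sequences were chosen after values were seen. Gene positions and types are from GENCODE 29, which matched 34232 genes. Some genes are not reported here and are left out of list counts. The main fit and edgeR were also run on simulated counts that held no split of replicates and no pairing. That run does not show how the fits perform on these samples.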

Additional observations from a re-analysis of the deposited data

Results flagged for a closer look

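The 145 groups of 5 shScramble values examined were those of 141 named genes and of the library measures. These measures were reads, mitochondrial ribosomal RNA, the share of the 10 most abundant genes and processed pseudogenes. In 8 groups, all of named genes, 1 sample lay far from the other 4. Its gap to the nearest over the range exceeded 0.71, where chance gives about 1 in 20. DHRS2 had 106.2 normalised counts in shScramble replicate 1 against 17.7 to 36.0 in the others, GNG12 123.2 against 23.7 to 43.6, NWD1 160.7 against 187 to 192, and HDAC1 5074 against 6414 to 6770, all in the same replicate. In shScramble replicate 2 B4GALNT1 had 671.1 against 229 to 357, CHD5 210.3 against 515 to 607, and UTP4 1397 against 1540 to 1598. SLC1A2 had 6.11 in shScramble replicate 3 against 9.81 to 10.7 in the others.

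For 21 of 141 named genes the shCHD4#2 effect at 48 h differed from that at 24 h by the test of the difference itself (limma), on the log2 scale. Over all genes tested 0.295 percent passed upwards and 0.694 percent downwards. CDKN1A, GNG12, TNFRSF12A, HBEGF, SEZ6L2, MROH2A, NWD1, PLA2G3 and LOXHD1 were named because they passed this same test. Others were named for large changes at 48 h, so the count of 21 follows in part from the choice of genes. Differences upwards were 2.73 for CDKN1A, 2.71 for GNG12, 2.11 for TNFRSF12A, 1.81 for HBEGF, 1.72 for SEZ6L2 and 1.12 for MAGEA3. Downwards, and led by genes of many kinds, they were -2.47 for MROH2A, -2.22 for NWD1, -1.96 for PLA2G3, -1.85 for LOXHD1, -1.82 for PFKFB4, -1.68 for LBH and -1.27 for ST6GAL1. Cholesterol genes gave -1.41 for STARD4, -0.94 for HMGCS1, -0.90 for SREBF2 and -0.85 for SQLE. DDIT4 gave -1.22, IFI44L -1.15, CD99 -0.72 and PBRM1 -0.55. Adjusted p ranged from 0.00617 to 0.0467, and with shCHD4#2 24 h replicate 1 or 48 h replicate 2 left out no gene passed in the upward direction.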

How the results depend on the processing

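Of 313 called genes other than CHD4 that are named or counted on the lists for shCHD4#2 over shScramble, 313 kept their direction under every alternative tried, 277 stayed called with the replicate block, 312 with the split of replicates as a term, 230 in every fit that left out 1 sample and 83 under all alternatives. Reversed values were all of subunits that did not pass: MTA3 at -0.0074 and GATAD2A at 0.036 in replicates 1 and 2 alone, RBBP7 at -0.017 without shCHD4#2 replicate 3 (0.14 at most on omitting 1 sample) and CHD3 at 0.0051 under quantile normalisation; the cause was not tested. Genes higher and lower were 578 and 770 in replicates 1 and 2 alone, with fewer samples, and 705 and 838 in the authors' deposited table, where 55.6 percent of p-values are exactly 1. The form of the authors' test is not stated, so those counts may not answer the same question. Of 1446 genes called there and tested here, 1442 were called here in the same direction and 0 in the other. Many genes called here did not pass there, among them BUB1B, CHEK1, GATAD2B, UCHL1, XIAP, TIMP3 and PDK1. Omitting 1 sample at a time gave 2333 to 3909 higher, 2963 to 4385 lower and -2.14 to -2.02 for CHD4. Against shCHD4#1 the counts were 18 and 24 in replicates 1 and 2 alone, 4288 and 4090 in replicate 3 of each hairpin with the spread of shScramble replicates 3 to 5, a fit that assumes that lone samples vary like those, and 2852 to 4294 and 2933 to 4354 on omitting 1 sample. The replicate block changed neither total against shScramble or shCHD4#1 by over 1.5 times. Of the list counts it moved 4 by that much: 5 lower for genes repressed by EWS-FLI1, and 3, 11 and 2 higher for glycolysis, ribosome biogenesis and chromatin genes. In all these counts the replicate block included the shFLI1 samples. Without them the block gave 4100 higher and 4589 lower over shScramble, and 4779 and 4961 over shCHD4#1.

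For 48 h minus 24 h, genes higher and lower were 1 and 7 in the 4 compared groups alone and 224 and 426 with the replicate block. They were 442 and 741 with the block and no shFLI1 samples (added after seeing the data), and 378 and 576 with the split as a term. Replicates 1 and 2 alone gave 0 and 0 (limma, 410 and 512 at an unadjusted p under 0.05). The counts were 38 and 79 with no filter, 117 and 220 under quantile normalisation and 262 and 381 by DESeq2. Omitting 1 sample gave 0 to 539 higher and 12 to 743 lower: 0 and 12 without shCHD4#2 24 h replicate 1 and 0 and 14 without 48 h replicate 2 (891 and 777 higher at an unadjusted p under 0.05), 539 and 743 without 48 h replicate 1, and 141 and 239 without shScramble 24 h replicate 2. Omitting shCHD4#2 24 h replicate 3 or 48 h replicate 3, shScramble 24 h replicate 1, 3, 4 or 5, or shScramble 48 h replicate 2, 3, 4 or 5 gave 17 to 42 higher and 51 to 88 lower.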

Other observations

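Kinds of gene differed in their share of calls with shCHD4#2 over shScramble. Antisense genes had 24.2 percent higher and 9.62 percent lower of 1590 tested, and lincRNA genes 16.8 and 12.3 percent of 1555. Protein-coding genes had 18.1 percent higher and 24.4 percent lower of 14343, and processed pseudogenes 4.52 and 8.16 percent of 686. Without the strand setting of the counting, reads of antisense genes and their partners cannot be told apart.

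By mean level, genes over 3000 normalised counts had 13.1 percent higher and 31.7 percent lower of 3696, and genes under 30 had 11.8 and 8.9 percent of 3966. Protein-coding genes that span 100 to 200 kb had 15.4 percent higher and 30.8 percent lower of 1806, and those under 5 kb 17.6 and 18 percent of 1176. The longest genes, over 200 kb, had 11.9 and 23.3 percent of 1280, so the lower share did not rise throughout with length.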
